A study of Mus musculus with 4 samples.

Results

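The genes described here are 10 transcripts of the machinery that holds epithelial cells to the basement membrane, chosen by symbol: the integrin alpha chains Itga2, Itga3, Itga5, Itga6 and Itgav, the integrin beta chains Itgb1, Itgb4 and Itgb6, and the hemidesmosome genes Col17a1 and Dst. All 10 were found among the 69231 features of the count table, of which 54446 carry a mouse Ensembl identifier, and all 10 were among the 21916 genes with enough counts to be tested. RNA was sequenced from 4 libraries of epithelial cells derived from the tongue of C57BL/6 mice and grown in RPMI-1640 with 10% fetal bovine serum. The control group was wild type (Control 1 and 2), and the other group carried the label of a systemic knockout of Otub2, a deubiquitinase (labelled KO 3 and 4). The age of the mice, the deleted part of Otub2 and whether each library is its own animal or culture are details not given in the sources used here. The p-values therefore reflect variation among these 4 libraries, some of which may be technical.

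Integrins are heterodimers of an alpha and a beta chain that bind matrix proteins outside the cell and the cytoskeleton inside it. In basal cells of stratified epithelium, Itga6 pairs with Itgb4 to form the laminin receptor of the hemidesmosome, the junction that ties keratin filaments to the basement membrane, where Col17a1 (a transmembrane collagen) and the epithelial form of Dst (a plakin that binds keratin) join it. Itgb1 pairs with Itga2, Itga3 and Itga5 to form receptors of collagen, laminin and fibronectin at focal adhesions, which end on actin. Itgav pairs with Itgb6 in an epithelial receptor known for activating latent TGF-beta.

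Each library was checked before the members were read. Otub2 had 393 and 367 counts in wild type against 272 and 495 in labelled KO 3 and 4, so its transcript was detected in all 4 libraries. Scaled to library size, it was at 27.5 and 26.9 CPM (counts over the TMM-scaled library size) against 19 and 23.9 CPM, with both below both controls (edgeR adjusted p = 0.485 for a log2 fold change of -0.34 with an SE of 0.302). The count columns of labelled KO 3 and 4 are headed OE, a common abbreviation of overexpression, whereas the titles and genotypes say knockout; the titles were followed, and a direction given here would turn to a gain of Otub2 if the headings were right. Gene counts summed to between 11548186 and 22719550 per library. The 4 basal keratinocyte markers (Krt5, Krt14, Krt15 and Trp63) were detected in every library. They summed to 30840 and 26950 CPM in the controls and to 15180 and 24750 in labelled KO 3 and 4. Krt14 made most of each sum, at 25320, 21570, 11060 and 15970 CPM in the same order. In labelled KO 3 all 4 lay below both controls. In labelled KO 4, Krt14 and Krt15 (25.1 CPM against 179 and 197) lay below both controls. Krt5 (8223 CPM against 5025 and 4840) and Trp63 (526 against 312 and 347) lay above both there. The 4 suprabasal keratinocyte markers summed to 15120 and 13860 CPM against 5654 and 5407. Krt13, Krt4 and Krt10 lay below both controls in both libraries. Krt1, at 27.9 and 80.35 CPM in the controls, was at 7.82 in labelled KO 3 and 263.5 in labelled KO 4. The 4 markers of simple epithelium summed to 175 and 163 CPM against 432 and 332, with Krt7, Krt8 and Krt18 above. Epcam was at 153 and 150 CPM in the controls, 152 in labelled KO 3 and 271 in labelled KO 4. It made most of the sum in every library but labelled KO 3. Library labelled KO 3 stood apart, with 382000 CPM of 6 salivary gland markers against 3.96 to 18.9 in the other 3 libraries, and 14870 CPM of 5 cardiomyocyte markers against 25.4 to 44.5. Of the gland sum in that library, the secreted mucin-like Mucl2 made 381500 CPM, Smgc 414 and Aqp5 148. Muc19 was at 3.7 CPM against 3.57 and 2.34 in the controls, and Smr3a and Dcpp1 had 0 counts. Of the cardiomyocyte sum in labelled KO 3, Myh6 made 9390 CPM, Actc1 2758, Tnnt2 2714 and Nppa 9.57. Myl7 did not rise, at 2.24 CPM against 2.1 and 2.64 in the controls. Fibroblast markers (6 genes) summed to 131 and 163 CPM in the controls and 610 and 360 in labelled KO 3 and 4, smooth muscle and pericyte markers (5 genes) to 56.5, 52.2, 1015 and 107 CPM in the same order, and Schwann cell markers (4 genes), whose cells also make Itga6 and Itgb4, to 29.9, 29.8, 99.3 and 40.6 CPM. In labelled KO 4 most of the fibroblast sum was Col1a1, Col1a2 and Col3a1, while the fibroblast markers Dcn and Pdgfra lay below both controls. Of the smooth muscle and pericyte sum in labelled KO 3, Des made 645 CPM, Rgs5 209, Acta2 120, Myh11 25.7 and Pdgfrb 15.2. Endothelial markers (5 genes) summed to 60.3 and 49.3 CPM in the controls, 228 in labelled KO 3 and 61.9 in labelled KO 4. The part of these cells in the member values was not tested, and in bulk RNA a larger share of expressing cells and more RNA per cell cannot be told apart.

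As a group the members lay higher in the libraries labelled Otub2 knockout, most of all in labelled KO 4, but none passed the test over all genes. In 8 of 10 both libraries lay above both controls on the TMM scale, and in 0 of 10 below; among the 11788 genes with a mean of at least 5 CPM the shares were 42.7% above and 12% below. The count above was 4 of 10 with upper-quartile scaling and 3 of 10 with library size only, where the share of genes of at least 5 CPM was 15.8% and 13.5%. With only genes of at least 5 CPM fitted it was 6 of 10, where that share was 22.7%. With library size without the 50 most abundant genes of each library it was also 6 of 10 (26.3%). On the first TMM scale, both libraries were at least 2-fold above both controls in 3 members (Itga2, Itgb1 and Itgb6), against 3.82% of genes of at least 5 CPM. The median log2 fold change of the members was 1.44, beside 0.41 for genes of at least 5 CPM. The quasi-likelihood test of edgeR called 0 of 10 members at an adjusted p of 0.05, as it called 0% of the genes tested, and 6 of 10 (Itga2, Itga5, Itgb1, Itgb6, Col17a1 and Dst) were higher at an unadjusted p under 0.05, against 9.42% of genes. DESeq2 called 4 of 10 higher (Itga2, Itgb1, Itgb6 and Dst), against 4.36% of the genes to which it gave an adjusted p, and limma voom called 0.

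**Figure D1:**
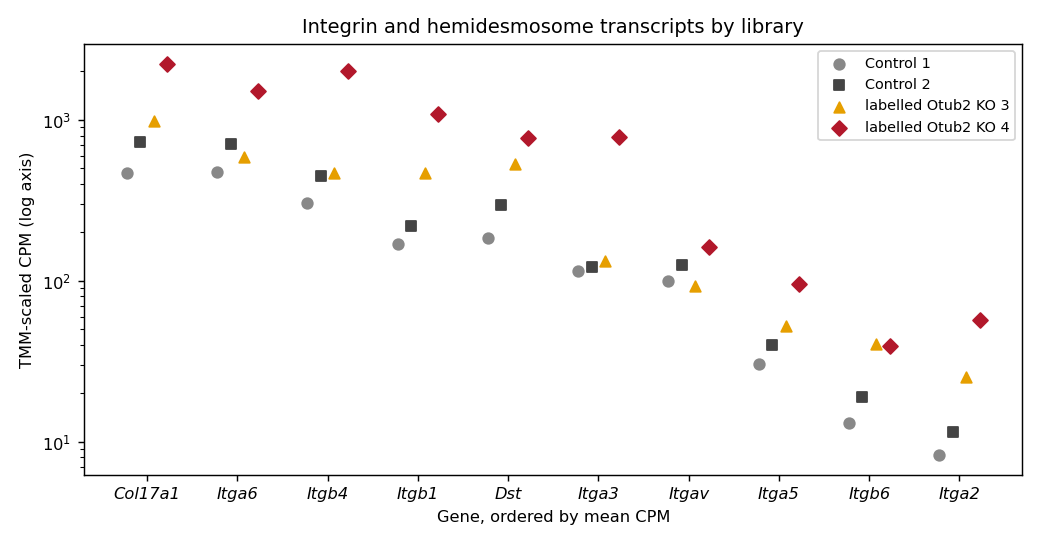
TMM-scaled CPM (log axis) of the 10 members in each library, ordered by mean CPM, with 1 point per library. Labelled KO 4 is the highest library for every member except Itgb6, and labelled KO 3 lies within the range of the controls for Itga6 and below it for Itgav.

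To show the DNA next to which these values arise, the 250 bases before the transcription start are printed for the collagen receptor pair Itga2 and Itgb1, whose values were most alike among the members, and for Col17a1, the most abundant member. Sequences are from the RefSeq promoter table (GRCm38.p6), which matched 8 of 10 members, and are written 5′ to 3′ on the strand of the gene. Capitals mark the letters of any of 5 motifs searched on both strands: TGANTCA (AP-1), GGAATG (TEAD), GGGCGG (SP1), TATAAA (the TATA box) and CCGGAA (ETS). The ETS and TEAD letters can overlap, and did not in these promoters.
Itga2, chr13:114932101-114932350, minus strand: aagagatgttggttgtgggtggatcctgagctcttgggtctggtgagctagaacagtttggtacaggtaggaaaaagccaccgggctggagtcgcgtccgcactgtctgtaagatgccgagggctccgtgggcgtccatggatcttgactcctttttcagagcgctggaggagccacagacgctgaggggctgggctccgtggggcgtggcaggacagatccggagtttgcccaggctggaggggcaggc
Itgb1, chr8:128685404-128685653, plus strand: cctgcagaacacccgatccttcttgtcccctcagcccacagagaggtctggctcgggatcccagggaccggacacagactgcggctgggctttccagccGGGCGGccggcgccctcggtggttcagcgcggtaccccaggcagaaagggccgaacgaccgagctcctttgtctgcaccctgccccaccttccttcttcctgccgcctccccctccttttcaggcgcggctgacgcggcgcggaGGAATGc
Col17a1, chr19:47692043-47692292, minus strand: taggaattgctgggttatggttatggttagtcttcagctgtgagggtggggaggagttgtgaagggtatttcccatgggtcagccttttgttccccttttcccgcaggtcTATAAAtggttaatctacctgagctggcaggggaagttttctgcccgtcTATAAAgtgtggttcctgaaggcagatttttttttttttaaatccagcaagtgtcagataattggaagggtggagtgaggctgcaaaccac

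The printed promoters do not share any of these motifs. The TEAD letters stood 7 to 2 bases before the start of Itgb1, and 12.6% of 32851 promoters of this length hold them. Itgb1 also held the SP1 letters once (32.7% of promoters), Col17a1 the TATA box letters at 2 places, 140 and 91 bases before its start (12.4%), and Itga2 none of the 5. The AP-1 letters (6.7% of promoters) were in none of the 11 promoters of the 8 members, and the ETS letters (12%) only in 1 promoter of Itga3. The share of G and C was 60.8% for Itga2, 68% for Itgb1 and 46% for Col17a1, beside a median of 52.4%. A match is a description of letters and not of a bound site.

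Itgb1, the common beta chain of the collagen, laminin and fibronectin receptors, had values well separated between groups. Itgb1 (ENSMUSG00000025809, GRCm38 chromosome 8, 128685654 to 128733200, plus strand) had 2438 and 2999 counts in wild type against 6665 and 22650 in labelled KO 3 and 4, which is 171, 220, 465 and 1096 CPM. Both libraries lay above both controls, with labelled KO 4 the higher. The log2 fold change was 2.0 (SE 0.5, 95% interval 0.73 to 3.27, n = 2 per group, edgeR adjusted p = 0.166; DESeq2 adjusted p = 0.014).

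Itga2, the alpha chain of the collagen receptor, was the rarest member by mean CPM and had a pattern close to that of Itgb1. Itga2 (ENSMUSG00000015533, chromosome 13, 114833081 to 114932100, minus strand) was at 8.26 and 11.5 CPM in wild type against 25.1 and 57 CPM in labelled KO 3 and 4. The groups did not overlap (log2 fold change 2.06, SE 0.5, 95% interval 0.78 to 3.33, edgeR adjusted p = 0.166; DESeq2 adjusted p = 0.0152). Each of the pair was the nearest member to the other, at a distance of 0.122 between the log2 CPM of the 4 libraries, each gene centred on its control mean.

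Itga3, the alpha chain of a laminin receptor, was set apart by labelled KO 4 alone. Itga3 (ENSMUSG00000001507, chromosome 11, 95044474 to 95076801, minus strand) was at 115 and 122 CPM in wild type, 132 CPM in labelled KO 3 and 786 CPM in labelled KO 4. Labelled KO 3 lay close to the controls, and the log2 fold change of 1.95 had a wide interval (SE 0.825, -0.14 to 4.05, edgeR adjusted p = 0.217). Set alone against the controls, labelled KO 4 gave a log2 fold change of 2.76 and labelled KO 3 one of 0.16.

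Itga5, the alpha chain of the fibronectin receptor, lay higher by less. Itga5 (ENSMUSG00000000555, chromosome 15, 103344286 to 103366763, minus strand) was at 30.6 and 39.7 CPM in wild type against 52.2 and 95.9 CPM in labelled KO 3 and 4. The groups did not overlap (log2 fold change 1.07, SE 0.382, 95% interval 0.10 to 2.04, edgeR adjusted p = 0.187).

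The pair of the hemidesmosome, Itga6 and Itgb4, had estimates of different size. Itga6 (ENSMUSG00000027111, chromosome 2, 71745616 to 71858416, plus strand) was at 473 and 710 CPM in wild type, 585 CPM in labelled KO 3 and 1505 CPM in labelled KO 4, so that labelled KO 3 fell between the controls. Its log2 fold change was 0.82 (SE 0.547, 95% interval -0.57 to 2.21, edgeR adjusted p = 0.368). Itgb4 (ENSMUSG00000020758, chromosome 11, 115974709 to 116008412, plus strand) was at 305 and 447 CPM in wild type, 470 CPM in labelled KO 3 and 2005 CPM in labelled KO 4. Labelled KO 3 lay just above the higher control, and the log2 fold change was 1.72 (SE 0.733, 95% interval -0.15 to 3.58, edgeR adjusted p = 0.219).

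Col17a1, the transmembrane collagen of the hemidesmosome, was the most abundant member by FPKM in every library. Col17a1 (ENSMUSG00000025064, chromosome 19, 47646344 to 47692094, minus strand) was at 470 and 726 CPM in wild type against 983 and 2239 CPM in labelled KO 3 and 4. The groups did not overlap (log2 fold change 1.43, SE 0.53, 95% interval 0.08 to 2.78, edgeR adjusted p = 0.192). Dst, the plakin (ENSMUSG00000026131, chromosome 1, 33908225 to 34308661, plus strand), was at 185 and 296 CPM in wild type against 533 and 776 CPM in labelled KO 3 and 4, again without overlap (log2 fold change 1.45, SE 0.391, 95% interval 0.45 to 2.44, edgeR adjusted p = 0.166; DESeq2 adjusted p = 0.0418). Dst also encodes neural and muscle forms, which a count per gene does not tell apart from the epithelial form, and labelled KO 3 holds muscle transcripts.

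Of the TGF-beta activating pair, Itgb6 lay higher in both libraries and Itgav did not. Itgb6 (ENSMUSG00000026971, chromosome 2, 60598292 to 60722643, minus strand) was at 13.1 and 19.1 CPM in wild type against 40.4 and 39.4 CPM in labelled KO 3 and 4. It was the only member in which labelled KO 4 was not above labelled KO 3, and its interval was the narrowest of the 10 (log2 fold change 1.31, SE 0.325, 95% interval 0.48 to 2.14, edgeR adjusted p = 0.166; DESeq2 adjusted p = 0.04). Itgav (ENSMUSG00000027087, chromosome 2, 83724397 to 83806916, plus strand) was at 99.4 and 126 CPM in wild type, 92.4 CPM in labelled KO 3 and 162 CPM in labelled KO 4. The groups overlapped, and the estimate of 0.17 on the log2 scale (SE 0.36, 95% interval -0.74 to 1.09, edgeR adjusted p = 0.766) turned negative with other scalings.

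**Figure D2:**
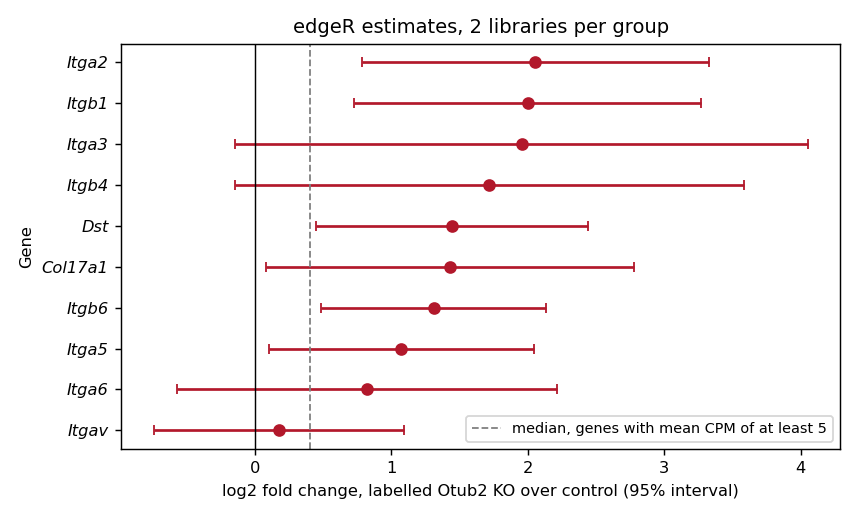
edgeR log2 fold change of each member, labelled Otub2 knockout over control, with its 95% interval (2 libraries per group). The dashed line is the median of genes with a mean of at least 5 CPM, 0.41; the intervals of Itga3, Itga6, Itgav and Itgb4 include 0.

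The difference between the groups was unevenly carried by the libraries labelled Otub2 knockout. The median log2 difference of the members from the control mean was 0.66 in labelled KO 3 and 1.83 in labelled KO 4, beside 0.28 and 0.35 for genes of at least 5 CPM. Labelled KO 4 lay above labelled KO 3 in 9 of 10 members, against 54.1% of those genes. The controls differed too: Control 2 lay above Control 1 in 10 of 10 members, against 52.3%, with a median log2 difference of 0.51. Set alone against the controls by edgeR, labelled KO 4 had 9 of 10 members higher (all but Itgav), where 18.8% of genes were called higher, and labelled KO 3 had 5 of 10 higher (Itga2, Itgb1, Itgb6, Col17a1 and Dst), where 22.4% were. Those fits assume that a lone library varies as little as the controls do. The difference between labelled KO 3 and 4 was not tested, with 1 library on each side.

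**Figure D3:**
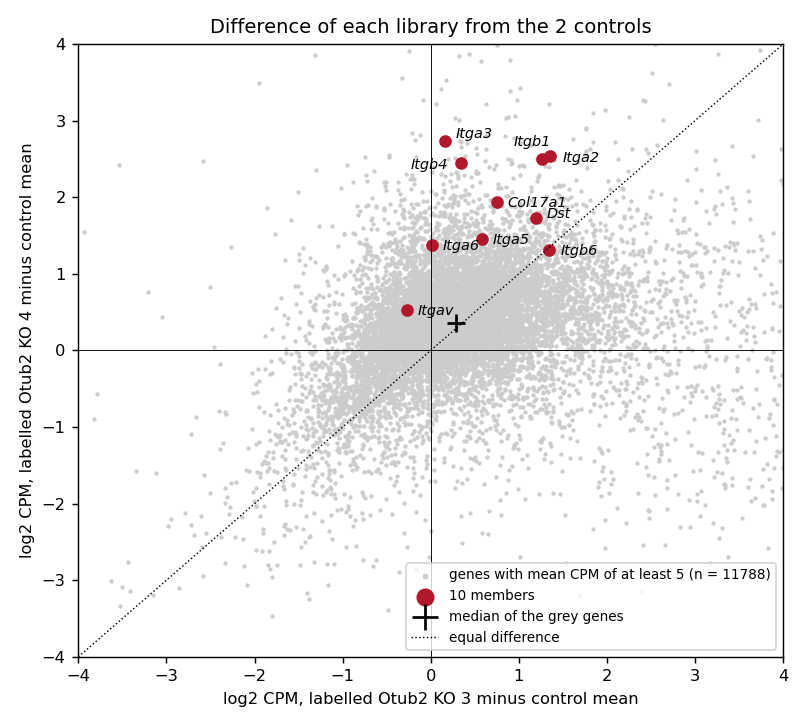
Difference in log2 CPM from the control mean in labelled KO 3 (x axis) and labelled KO 4 (y axis), for the 10 members (red) and the 11788 genes with a mean of at least 5 CPM (grey; 291 lie outside the axes). Itga3, Itgb4 and Itga6 stand high above the dotted line of equal difference, Itga2 and Itgb1 lie together, and Itgb6 lies next to the line.

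Because a single gene, Mucl2, holds so large a share of labelled KO 3 that the scaling is uncertain, values that need no scaling between libraries were read as well. By rank of FPKM (a level per transcript length and library size) within a library, among 47373 genes with a count, both libraries labelled Otub2 knockout ranked the gene higher than both controls did in 6 of 10 members (Itga2, Itga5, Itgb1, Itgb6, Col17a1 and Dst), against 26.9% of genes of at least 5 CPM. Col17a1 ranked 485 and 307 in wild type against 256 and 87 in labelled KO 3 and 4, and Itgb1 956, 705, 388 and 136 in the same order. Itgb4 ranked 922, 598, 677 and 127, so that labelled KO 3 fell between the controls. Itga3 ranked 2027 and 1854 in the controls, 2071 in labelled KO 3 and 279 in labelled KO 4.

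Read against the basal keratins of the same library, the members again lay higher. Over Krt5, 9 of 10 members had a higher ratio in both KO-labelled libraries than in either control, against 18% of genes of at least 5 CPM, and Itgav overlapped. Krt5 itself was at 5025 and 4840 CPM in wild type against 3712 and 8223 CPM in labelled KO 3 and 4 (edgeR adjusted p = 0.764). The ratio of Itgb1 to Krt5 was 0.0183 and 0.0244 in wild type against 0.0675 and 0.0718 in labelled KO 3 and 4. For Col17a1 the ratio to Krt5 was 0.0356 and 0.0572 in wild type against 0.101 and 0.104 in the others, nearly the same in both libraries. For Itga3 it was 0.00882, 0.00967, 0.0137 and 0.0368, so that labelled KO 4 stayed apart on this scale too. Over Krt14 all 10 were higher, but so were 82.1% of genes of at least 5 CPM, since Krt14 was at 25320 and 21570 CPM in wild type against 11060 and 15970 CPM in labelled KO 3 and 4.

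By level per length, the order of the members was close to the same in the 4 libraries. In deposited FPKM of Control 1 and 2, Col17a1 led with 92.8 and 145, followed by Itga6 (59.7 and 90.4), Itgb4 (49.6 and 73.2), Itgb1 (47.6 and 61.8), Itga3 (23 and 24.5), Itgav (10.5 and 13.4), Itga5 (7.08 and 9.25), Dst (5.11 and 8.26), Itgb6 (2.1 and 3.09) and Itga2 (1.32 and 1.85). The FPKM of Itga6, Itgb4 and Itgb1 overlapped between the controls, as did those of Itga5 and Dst. In labelled KO 4 the order began with Col17a1 (420), Itgb4 (309), Itgb1 (291) and Itga6 (181), and in labelled KO 3 with Col17a1 (106), Itgb1 (71), Itgb4 (41.7) and Itga6 (40.3). Itga6 ranked 2 among the members in both controls and 4 in both libraries labelled Otub2 knockout.

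The balance between chains that pair with each other, and between some members that do not pair, was compared as a ratio of FPKM within a library. In such a ratio the scaling cancels. Of 10 ratios, 4 were lower in both KO-labelled libraries than in either control, 0 were higher and 6 overlapped. The share among other gene pairs was not computed, and ratios that have Itgb1 or Itgb4 in common are not independent, so the count carries no weight by itself. The ratios are given as values with no test; an exact permutation test of 2 against 2 libraries cannot go below 0.333. Itga6 to Itgb4 was 1.21 and 1.24 in the controls, 0.967 in labelled KO 3 and 0.584 in labelled KO 4. Itga6 to Itgb1 was 1.25 and 1.46 in wild type against 0.568 and 0.621 in the others. Itgav to Itgb6 was 5.03 and 4.35 in wild type against 1.51 and 2.71 in the others, and Itga5 to Itgb1 was 0.149 and 0.149 against 0.0927 and 0.0724. The lower ratio in these 4 pairs is the same observation as a larger log2 fold change of the beta chain than of its alpha chain.

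Itga2 to Itgb1 was nearly constant, at 0.0277 and 0.0299 in wild type against 0.0309 and 0.0297 in labelled KO 3 and 4, while both genes lay above both controls. Col17a1 and Dst, each over Itgb4, lay above the controls in labelled KO 3 and below them in labelled KO 4. Col17a1 to Itgb4 was 1.87 and 1.98 in the controls, 2.54 in labelled KO 3 and 1.36 in labelled KO 4, and Dst to Itgb4 was 0.103, 0.113, 0.193 and 0.0659 in the same order. Itgb4 to Itgb1, the hemidesmosome chain over the focal adhesion chain, was 1.04 and 1.18 in the controls, 0.588 in labelled KO 3 and 1.06, between the controls, in labelled KO 4. Among the 5 alpha chains, Itga6 made up 58.8% and 64.8% of the summed FPKM in the controls, 58.5% in labelled KO 3 and 48.1% in labelled KO 4, where Itga3 took 39.7% against 17.6% to 22.6% in the other 3 libraries.

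**Figure D4:**
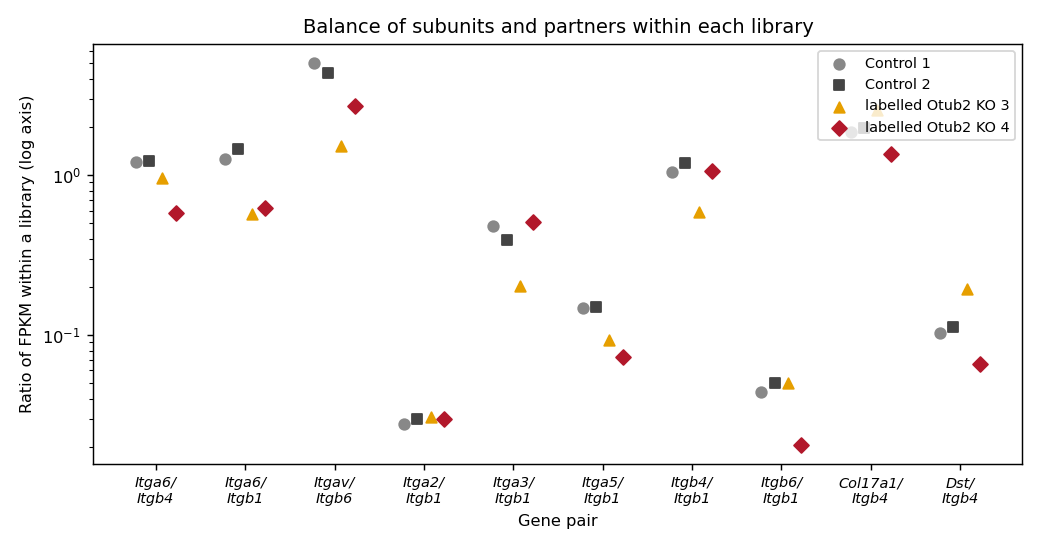
Ratio of deposited FPKM (log axis) for 10 gene pairs within each library, 1 point per library. The ratios of Itga6 to Itgb4, Itga6 to Itgb1, Itgav to Itgb6 and Itga5 to Itgb1 are lower in both libraries labelled Otub2 knockout, and that of Itga2 to Itgb1 stays between 0.0277 and 0.0309.

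The other genes of cell to matrix adhesion were read from 5 lists of 73 genes in all, each tested in the same fit. edgeR called 0 of 73, while at an unadjusted p under 0.05 there were 26 higher and 1 lower. At that threshold 2064 of all 21916 genes tested were higher and 3325 lower. Among the 11788 genes of at least 5 CPM, 1841 were higher and 431 lower. Both libraries labelled Otub2 knockout lay above both controls in 38 of 73 and below in 11, against 26.9% and 33.1% of all genes tested. Among the 60 of them with a mean of at least 5 CPM, 61.7% lay above and 8.33% below, beside the 42.7% and 12% of all genes at that level. DESeq2 called 13 higher and 0 lower. Of the 17242 genes to which it gave an adjusted p, it called 751 higher and 262 lower. Among the 11788 genes of at least 5 CPM it called 693 higher and 148 lower.

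Partners of the hemidesmosome lay mostly higher, with 5 of 7 above both controls and 1 below, 0 called by edgeR and a median log2 fold change of 0.96. Among genes of at least 5 CPM, 42.7% lay above and 12% below, with a median of 0.41. Lama3, a chain of a laminin that Itga6 with Itgb4 binds, was at 89.3 and 145 CPM in wild type against 386 and 851 CPM in the KO-labelled pair. Lamb3, which pairs with it in that laminin, was at 254, 235, 354 and 889 CPM, and the tetraspanin Cd151 at 84.3, 73.8, 156 and 143 CPM.

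Matrix ligands of integrins lay above both controls in 10 of 15 and below in 0, beside 42.7% and 12% of genes of at least 5 CPM. edgeR called 0 of them, and their median log2 fold change was 1.23. Lama5, a laminin chain of epithelial basement membrane, was at 47.3 and 66.4 CPM in wild type against 186 and 212 CPM in the KO-labelled pair (log2 fold change 1.81, SE 0.297, edgeR adjusted p = 0.166). Lamb1, another laminin chain, was at 21.6, 29.1, 65.3 and 84.5 CPM. The collagens Col1a1 and Col1a2, fibroblast products, were at 44.4 and 49.3 CPM against 108 and 164, and at 29.2 and 34.9 CPM against 78.2 and 84.3. Fibroblast markers, which include both, summed to 131 and 163 CPM against 610 and 360, and their part in these values was not tested. In labelled KO 4 most of that sum was Col1a1, Col1a2 and Col3a1 (90 CPM against 29.5 and 48.3). There Dcn (11 CPM against 17.1 and 18.6) and Pdgfra (7.07 against 8.4 and 8.06) lay below both controls. Lum (4.07 CPM against 2.17 and 3.52) lay above. Col1a2 was the gene of the lists nearest to Itgb6 (distance 0.228), and Lamb1 the nearest to Dst (0.256).

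The list genes nearest to other members, on the same scale over 4 libraries and 73 candidates, were Plec for Itga5 (0.232), Cd44 for Itgav (0.261), Nedd9 for Col17a1 (0.331), Tgfb1 for Itga6 (0.401), Tns4 for Itgb4 (0.754) and Lamb3 for Itga3 (0.951). Itgb4 and Itga3 thus had no close counterpart in the lists and were nearest to each other (0.479).

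Adaptors that link integrins to actin lay above both controls in 17 of 26 and below in 1, beside 42.7% and 12% of genes of at least 5 CPM. edgeR called 0 of them, and their median log2 fold change was 0.93. Parva, a parvin of the integrin-linked kinase complex, was at 40.8 and 39.9 CPM in wild type against 84.7 and 75.5 CPM in the KO-labelled pair, and talin 1 (Tln1), which binds beta chain tails, at 58.4, 89.9, 133 and 207 CPM. The kinase itself, Ilk, had 3, 11, 8 and 17 counts, too few to carry a level. Its exons share 2106 bases with Taf10 on the other strand, and the effect on its count was not tested. Tns3, a tensin, and Fermt2, a kindlin widely expressed outside epithelium, were highest in labelled KO 3, at 15.6, 18.9, 115 and 56.3 CPM and at 5.18, 6.67, 115 and 20.8 CPM. The summed cardiomyocyte markers and the summed smooth muscle and pericyte markers were also highest in that library, and the part of those cells was not tested. The epithelial kindlin Fermt1 was chosen for contrast after its values were seen, at 48.4, 61.3, 70.8 and 128 CPM (log2 fold change 0.86, SE 0.371, edgeR adjusted p = 0.221).

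Integrins outside the 10 members did not lie higher as a group, with 4 of 18 above both controls, 8 below and a median log2 fold change of -0.25. That is 22.2% above and 44.4% below, beside 26.9% and 33.1% of all genes tested, whose median was 0.09. Many of these integrins had a mean under 5 CPM, so the genes of at least 5 CPM are not their background. Of these, 6 below both controls (Itga4, Itgad, Itgae, Itgal, Itgax and Itgb7) are chains known mainly from leukocytes, and the 5 leukocyte markers were mixed. Ptprc and Cd3e lay below both controls, Cd68 lay above, and Csf1r and Adgre1 were highest in labelled KO 3 and lowest in labelled KO 4. Their sum was 35.8 and 32.5 CPM in the controls against 51.2 and 23.9, and their part in the integrin values was not tested. Itga7, the laminin receptor chain of muscle, was at 15.9 and 16.3 CPM in wild type against 90.2 and 39.5 CPM in labelled KO 3 and 4 (log2 fold change 2.01, SE 0.457, edgeR adjusted p = 0.166). Itga1, the alpha chain of another collagen receptor, was at 57.1, 45.1, 73.6 and 161 CPM. Itga11, a collagen receptor chain, was at 5.74 and 5.93 CPM in wild type against 3.21 and 1.89 CPM in the KO-labelled pair. Itgad had 19, 20, 8 and 6 counts, too few to carry a level.

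Matrix receptors of other families were mixed, with 2 of 7 above both controls and 1 below, beside 42.7% and 12% of genes of at least 5 CPM. edgeR called 0 of them, and their median log2 fold change was 0.16. Dystroglycan (Dag1), a laminin receptor, was at 53 and 60.4 CPM in wild type against 171 and 155 CPM in the KO-labelled pair (log2 fold change 1.52, SE 0.253, edgeR adjusted p = 0.166). Bcam, which binds laminin chains of the Lama5 type, was at 91.6, 71, 156 and 215 CPM. Ddr1, a collagen receptor kinase of epithelia, lay below both controls, at 232 and 264 CPM against 182 and 215, and Ddr2, its relative in mesenchyme, was at 3.43, 3.81, 12.1 and 3.68 CPM.

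**Figure D5:**
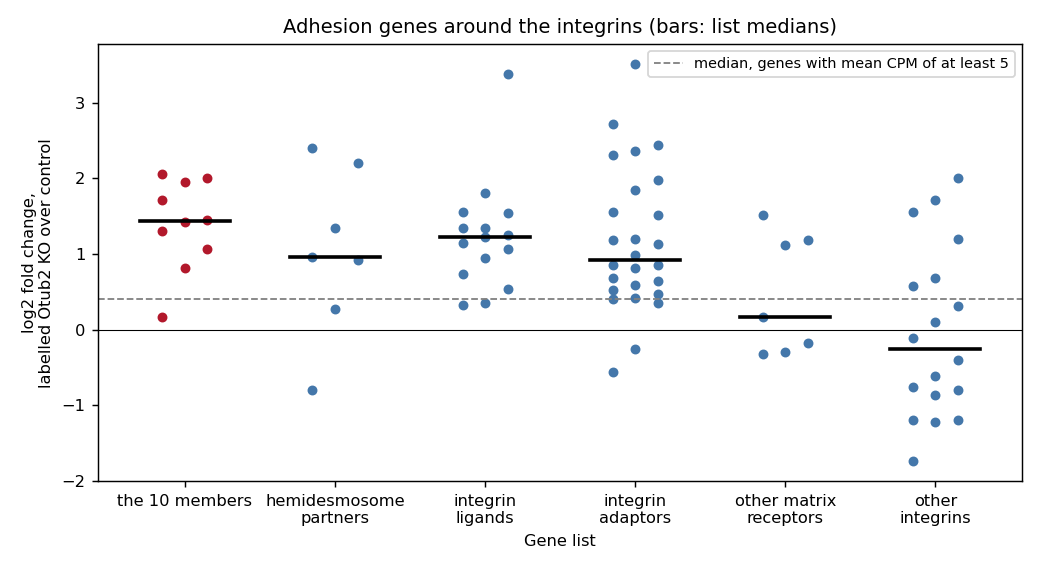
edgeR log2 fold change, labelled Otub2 knockout over control, of the 10 members (red) and of 5 lists of other adhesion genes (blue), 1 point per gene, with list medians as bars. The medians run from 1.44 for the members to -0.25 for the other integrins. The dashed line is the median of genes with a mean of at least 5 CPM, 0.41. Many of the other integrins are under that level, and the median of all genes tested is 0.09.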

How the data were processed

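The authors deposited a table with a raw read count per gene and library and an FPKM value computed from each count, per the file headers. The submitters' processing notes list HISAT2, DESeq and, without role or version, GRCh38, a human build; the gene identifiers are mouse, and 54409 of 54446 matched GENCODE mouse release 21 (GRCm38), the source of coordinates. The counter, its strand setting and the treatment of multiply mapped reads were not given in the sources used here. Dst, Itgav and Itgb4 share exon bases with antisense genes of at most 312 counts, so those reads cannot be told apart. The 14785 features without an Ensembl identifier (0.914% to 2.84% of counts) were left out, and 0 columns of per-sample values were unused.

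Counts were fitted with edgeR 4.0.16 (R 4.3.3, TMM, filterByExpr, quasi-likelihood F-test, Benjamini-Hochberg over 21916 genes), and the code was tested on simulated data. Standard errors come from the F statistic. Alternatives were DESeq2 1.42.0, limma 3.58.1 voom, other scalings and filters, and leaving out each library. Log2 CPM used a prior count of 2. The text names all 10 members, up to 4 genes of smallest p in each of 5 lists, and the list gene nearest to a member; other names were chosen after their values were seen. One gene named by this rule is not reported here. Members and lists were chosen with earlier results of these data known, so no list is independent support.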

Additional observations from a re-analysis of the deposited data

How the results depend on the processing

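With DESeq2 4 members and 13 other adhesion genes were called, all higher, where 4.36% of genes with an adjusted p were called higher. With upper-quartile scaling and with library size only, 4 and 3 members lay above both controls in both libraries, in place of 8. Of genes of at least 5 CPM, 15.8% and 13.5% did, in place of 42.7%. With only genes of a mean CPM of at least 5 fitted, 6 members lay above, beside 22.7% of those genes. With library size without the 50 most abundant genes of each library, 6 members did, beside 26.3%. Library size only called 1 other adhesion gene (Itgad, lower). Scaling moved all genes together: the median log2 fold change of genes of at least 5 CPM ran from 0.41 on the TMM scale to -0.07 with upper quartile and -0.03 with library size only, while the member median stayed 1.01 to 1.13 above it over the 8 alternatives that keep every library and the TMM fit. Itgav turned negative with upper-quartile scaling (-0.29), library size only (-0.17), library size without the 50 most abundant genes of each library (-0.07) and a mean CPM of at least 5 (-0.16). Leaving out 1 library at a time gave 0 to 9 members called (0 without either control, 9 without labelled KO 3, 5 without labelled KO 4), 8 to 10 members above, 0 to 1 below (Itgav without labelled KO 4) and 0 to 49 other adhesion genes called (40 higher and 9 lower without labelled KO 3, where 4359 of 23181 genes were called higher and 5097 lower; 33 higher and 7 lower without labelled KO 4, where 5243 of 23380 were called higher and 2961 lower). Over these fits Itga6 ran from -0.02 without labelled KO 4 to 1.37 without labelled KO 3, and Itgav from -0.29 to 0.55. Of 120 member values under 12 alternatives, 6 changed sign, 18 passed the threshold and 96 did neither. The cause of these shifts was not tested. No paired analysis was possible because the groups share no replicate number. Counting error is small at these depths, and the 2 libraries per group set the precision.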
